A study of Mus musculus with 2 samples.

Results

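The cells described here are the spinous keratinocytes of imiquimod-treated mouse epidermis, 57 of the 5258 cell barcodes in the epidermal library and of the 10634 in both libraries of the study. They were chosen by their own transcripts, counted as unique molecular identifiers (UMIs, each marking 1 captured RNA molecule). A cell had to hold at least 200 genes and at most 10% mitochondrial UMIs, which left 4173 cells. It then needed at least 50 UMIs of *Krt1* and *Krt10* together per 10000 UMIs of the cell, and at least as many UMIs of this pair as of *Krt5* and *Krt14*. Cells with 20 or more *Lor*, *Flg* and *Flg2* UMIs per 10000, 10 or more *Krt79* UMIs per 10000, 3 or more *Mki67* and *Top2a* UMIs, or 15 or more *Trdc* and *Trdv4* UMIs per 10000 were left out. Spinous cells made up 1.37% of the kept cells (exact 95% interval 1.04 to 1.77%).

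The study profiled skin of male wild-type C57BL/6 mice given imiquimod (IMQ), which activates Toll-like receptors, as a cream on 5 days, and no library of untreated skin was analysed here. Both layers of the skin were digested apart and each gave 1 droplet-based single-cell 3′ RNA library. The labels give the mice as 10 weeks old and name the ear, while the methods state a younger age. The methods load all live cells of the epidermis and CD45+ live cells of the dermis, where the labels speak of live cells for both. IMQ was shared by both groups, so nothing below separates its effect from normal skin. The epidermal library held 108768396 UMIs (median 16965 per barcode), and the dermal library held 41258087 UMIs over 5376 barcodes. Spinous cells held 1083564 UMIs, and the median cell had 21427 UMIs from 3175 genes. With 1 library per tissue, cells are not replicates, and no test between cell groups or tissues was made. Every interval is an exact interval at 95% and covers counting error, not the spread between cells or mice.

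Keratinocytes are born in the basal layer, where they hold on to the basement membrane through integrins and express the keratin pair *Krt5* and *Krt14*. On leaving that layer they become spinous, switch to the keratin pair *Krt1* and *Krt10* and build dense desmosomes. Higher up, granular cells make loricrin and filaggrin, seal the cornified envelope and secrete barrier lipids. IMQ on mouse skin is used as a model of psoriasis, in which the epidermis thickens and keratinocytes make the stress keratins K6, K16 and K17 and antimicrobial proteins.

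The values that chose the cells are given as a description. *Krt1* and *Krt10* together ran from 62.3 UMIs per 10000 in the lowest spinous cell through a median of 195 to 499 in the highest. The kept cell just under the minimum held 49.7. Spinous cells carried 33.5 to 175 *Krt5* and *Krt14* UMIs per 10000, with a median of 95.5. The ratio of both pairs ran from 1.0 to 10.1 with a median of 2.04, and 19 of the 57 cells had a ratio under 1.5. In γδ T cells of the same library, defined below, *Krt5* and *Krt14* had a median of 58.3 and a maximum of 224 per 10000. Of these T cells, 68% held 50 or more, the minimum of the basal gate given below. How much of this pair in spinous cells was free RNA was not tested, and the ratios carry the same limit. Of 152 cells past the keratin minimum, 93 failed the balance of both pairs, and of the 59 that passed, 2 more were left out as cycling. Of these 93, 69 cells failed the balance alone, with ratios of 0.214 to 0.926. These are called intermediate below, and all 69 lie in the basal gate, which takes cells with the same limits, *Krt5* and *Krt14* at 50 or more per 10000 and above *Krt1* and *Krt10*. Spinous cells held 27.4% of the *Krt1* UMIs and 41.7% of the *Krt10* UMIs of all kept cells, and intermediate cells held 21.3% and 14.9%.

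**Figure D1:**
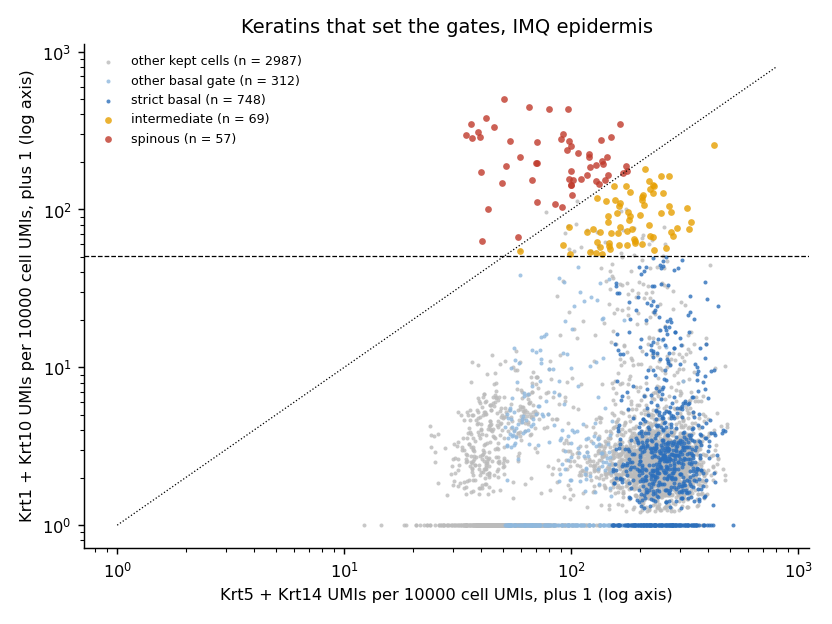
Each point is 1 of the 4173 kept epidermal cells, with *Krt5* and *Krt14* UMIs per 10000 cell UMIs on the x axis and *Krt1* and *Krt10* on the y axis, both plus 1 on log axes, the keratin minimum dashed and equality dotted. The 57 spinous cells lie above the dashed line and on or above the dotted line, next to the 69 intermediate cells.

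No cell of either library passed the granular gate, which asked for 20 or more *Lor*, *Flg* and *Flg2* UMIs per 10000. In the epidermis this was 0 of 4173 cells, which allows a share of up to 0.0719% (3 counts of the total; exact upper limit 0.0884%). The highest value in any epidermal barcode was 8.59 per 10000. The library held 487 *Lor* UMIs, 4 *Flg* UMIs and 0 *Flg2* UMIs, of which spinous cells held 2, 1 and 0. The planned comparison of spinous with granular cells therefore has no value.

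Genes outside the rule that mark the spinous layer were used to check the name. They were chosen, like the gates, with earlier results of these data known, so the check is not independent of the data. *Krtdap*, which encodes a small secreted protein of differentiating keratinocytes, had a median of 71.7 UMIs per 10000 over spinous cells (lowest 0, highest 147), against 16.4 in strict basal cells. Strict basal cells, a class of 748 cells chosen after seeing the data, are basal gate cells with *Krt5* and *Krt14* at 150 or more per 10000, immune genes under 5 per 10000 and *Krt1* and *Krt10* under 50 per 10000. The other 7 fixed spinous markers (*Sbsn*, *Dsc1*, *Dsg1a*, *Lgals7*, *Calml3*, *Sfn* and *Dmkn*) were also higher than in the basal gate, by 1.28-fold for *Sfn* to 12.9-fold for *Dsc1*. *Calml3* rested on 1 cell with 22 of its 36 UMIs, and was 1.14-fold higher without it. All 5 fixed basal markers were lower, from 0.0805 times the basal level for *Krt15* to 0.257 times for *Itga6* and *Itgb4*. These spinous and basal markers ran the way the label says, in the same cells that the rule chose. The fixed granular markers were mixed. *Asprv1*, *Ivl* and *Tgm3* were higher than in the basal gate, at log2 ratios of 2.69, 1.98 and 0.71. The others, *Lce1a1*, *Cdsn* and *Hrnr*, had 0 UMIs in spinous cells.

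The start sites of 3 genes are shown. *Krt10* was taken because it set the gate. *Krtdap* and *Sbsn* (suprabasin, a secreted protein of the suprabasal layers) were taken as secreted markers that stand close together on chromosome 7. Each line gives the 100 bases before the start in the RefSeq promoter table of GRCm38.p6, 5′ to 3′ on the gene's strand. Capitals mark TATAAA and TGANTCA (the letters of an AP-1 site), searched on both strands. *Krt10* lies at chr11:99389365-99389464 (minus strand), *Krtdap* at chr7:30787805-30787904 (plus strand) and *Sbsn* at chr7:30751371-30751470 (plus strand).
Krt10: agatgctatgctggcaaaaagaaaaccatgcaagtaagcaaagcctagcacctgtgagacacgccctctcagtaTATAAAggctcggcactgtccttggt
Krtdap: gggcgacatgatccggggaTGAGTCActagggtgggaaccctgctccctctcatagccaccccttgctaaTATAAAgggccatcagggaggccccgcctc
Sbsn: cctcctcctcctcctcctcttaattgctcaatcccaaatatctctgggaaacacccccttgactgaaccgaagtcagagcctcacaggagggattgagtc
TATAAA began 26 bases before the *Krt10* start and 30 bases before the *Krtdap* start, and TGANTCA began 81 bases before the *Krtdap* start. Over 32851 promoters of the table, 5.56% held TATAAA and 2.73% held TGANTCA in the same 100 bases. Neither run of letters was in the *Sbsn* window, nor in those of *Calm4* and *Krt2*, the other windows searched. A match is a description of letters and says nothing of binding.

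For levels, UMIs were summed over the cells of a gate and given as CPM, the UMIs of a gene per 1000000 UMIs of the gate. One 3′ tag is counted per molecule, so levels of different genes are set side by side without dividing by length. The most abundant transcripts of spinous cells outside the rule, apart from mitochondrial and ribosomal protein genes, were *S100a9* at 31245 CPM, *S100a8* at 24732 CPM, *Fabp5* at 24440 CPM and *Lgals7* at 23218 CPM. *S100a8* and *S100a9* encode the calprotectin subunits, *Fabp5* an epidermal fatty acid binding protein and *Lgals7* a galectin of stratified epithelia. Every spinous cell held all 4. Calprotectin was 1.73-fold higher for *S100a9* (1.71 to 1.75) and 1.62-fold for *S100a8* (1.6 to 1.65) than in the 1146 basal gate cells, and *Lgals7* was 1.88-fold higher (1.85 to 1.90). *Fabp5* stood further above the basal gate, at 3.52-fold (3.47 to 3.56). As a measure of free RNA, γδ T cells of the same library (*Trdc* and *Trdv4* at 15 or more per 10000 and at least 2 *Cd3* UMIs) held *S100a9* at 4517 CPM and *Fabp5* at 1608 CPM.

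Next in abundance came a cystatin of the stefin A group, *BC100530*, at 10370 CPM, then *Krtdap* at 7631 CPM, the elongation factor gene *Eef1a1* at 6587 CPM, *Calm4*, a calmodulin-like calcium-binding protein of the epidermis, at 6407 CPM, *Stfa3* at 5083 CPM, *Tpt1* at 4945 CPM and *Dmkn* (dermokine) at 4287 CPM. The stefin A genes are near-identical copies, so their split is uncertain. *Eef1a1* and *Tpt1* were level with the basal gate, at 1.02-fold and 1.12-fold. *Calm4* stood out, at 10.0-fold the basal gate (9.71 to 10.3), while *Krtdap* was at 3.54-fold (3.46 to 3.63) and *Dmkn* at 2.45-fold (2.38 to 2.53). Cell by cell, *Calm4* ran from 0 through a median of 47.2 to 255 UMIs per 10000 in spinous cells. Its median was 20.9 in intermediate cells and 1.72 in strict basal cells, and the ranges overlapped. *Fabp5* had medians of 241, 174 and 30.3 per 10000 in the same order, and its lowest spinous cell, at 14.1, lay under the strict basal median.

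**Figure D2:**
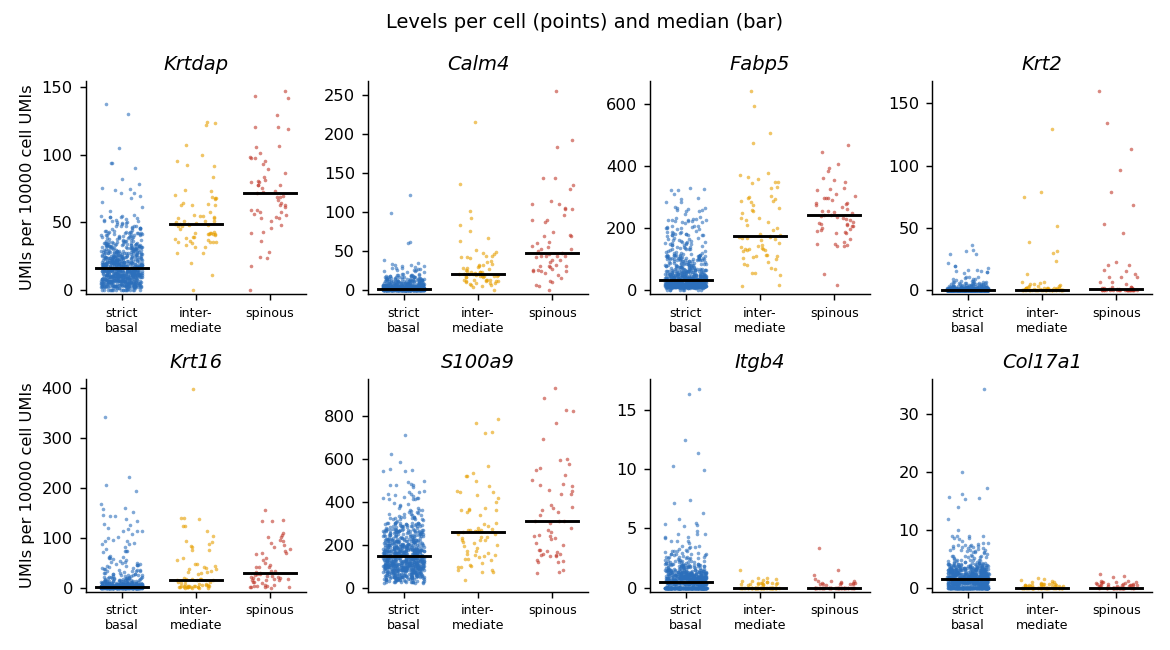
Points are cells and bars are medians, as UMIs per 10000 cell UMIs, for 748 strict basal, 69 intermediate and 57 spinous cells. *Krtdap*, *Calm4* and *Fabp5* have their highest medians in spinous cells (71.7, 47.2 and 241 per 10000), while *Itgb4* and *Col17a1* are at a median of 0 in spinous and intermediate cells, and the classes overlap in each panel.

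Across all genes, 9408 had at least 50 UMIs over the spinous and basal gates. Of these, 413 (4.39%) were at least 2-fold higher in spinous cells and 2009 (21.4%) at least 2-fold lower, on ratios with 0.5 UMI added. The median log2 ratio of all 9408 genes was -0.37. With that median set to 0 the split became 795 higher and 1243 lower. The gene groups below are lists that also hold genes which did not differ, and each count is to be read against these shares. The basal gate also held cells of other kinds: 215 of its 1146 cells carried immune genes at 5 or more per 10000, and 18 were in the Langerhans cell gate. No spinous cell carried immune genes at that level. The same counts were therefore made against strict basal cells, where 399 (4.52%) of 8821 genes were at least 2-fold higher and 1795 (20.3%) lower.

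Genes of early differentiation were the group with the highest median. Of 23 genes compared, 16 were at least 2-fold higher and 0 lower, with a median log2 ratio of 1.51, and 17 were higher against strict basal cells. *Sbsn* was at 886 CPM in spinous cells and 173 CPM in the basal gate, 5.13-fold higher (4.76 to 5.51). *Ly6g6c*, a GPI-anchored Ly6 family member, was 9.03-fold higher (7.79 to 10.4), and *Ly6d*, of the same family, was at 3704 CPM and 2.98-fold higher (2.88 to 3.08). *Them5*, an acyl-CoA thioesterase, was 5.72-fold higher (5.25 to 6.24) and *Gltp*, a glycolipid transfer protein, 3.83-fold (3.58 to 4.10). *Sfn* (14-3-3σ) and *Lgals7* were among the members under 2-fold. *Dsg1c* and *Krt78* had no UMI in spinous cells.

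The cornified envelope genes were either higher or without a UMI in large part. Of the 47 genes matched outside the rule, 22 had 0 UMIs in spinous cells, among them all *Lce1* genes matched, the *Lce3* genes other than *Lce3c*, *Hrnr*, *Cdsn*, *Rptn*, *Sprr3* and *Sprr4*. The last 3 had 0 UMIs in the basal gate too, where *Cdsn* had 42. Of the 23 compared, 13 were at least 2-fold higher and 2 lower, with a median log2 ratio of 1.09. *Casp14*, the caspase of cornification that processes filaggrin, was 16.2-fold higher (12.2 to 21.6), on 102 UMIs. *Krt2*, a keratin of the upper spinous layers, was 12.4-fold higher (11.6 to 13.2) at 1494 CPM, and 21.3% of its UMIs came from 1 cell. *Asprv1*, an aspartic protease that cuts filaggrin, was 6.44-fold higher (5.04 to 8.17), *Ivl* (involucrin) 3.93-fold (3.01 to 5.08) and *Tgm5*, a crosslinking transglutaminase, 7.90-fold (4.16 to 14.4) on 17 UMIs. *Tgm3* was 1.63-fold higher (1.33 to 1.97). The *Sprr2* genes, near-identical copies whose UMIs may be split in error, went both ways, with *Sprr2d* 2.53-fold higher (2.32 to 2.75) and *Sprr2f* at 0.475 times the basal level (0.358 to 0.620).

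Enzymes that make barrier lipids were higher in part. Of 20 compared, 7 were at least 2-fold higher and 0 lower, with a median log2 ratio of 0.81. They included *Elovl4*, which elongates the very long acyl chains of skin ceramides, at 7.76-fold (6.76 to 8.88), *Acer1*, a ceramidase, at 8.64-fold (6.79 to 11), and *Sptlc3*, a subunit of serine palmitoyltransferase, at 8.36-fold (5.37 to 12.8). *Dgat2*, which makes triglycerides, was 8.50-fold higher (6.56 to 10.9), and *Abca12*, the lipid transporter of lamellar granules, 3.58-fold (2.54 to 4.97). *Fa2h*, *Cyp4f39* and *Far2* had no UMI. Of 22 cholesterol synthesis genes, 9 were higher and 0 lower, with a median log2 ratio of 0.88. *Mvd* was 3.47-fold higher (2.75 to 4.34), *Mvk* 3.25-fold (2.75 to 3.83), *Fdft1* 2.93-fold (2.47 to 3.45) and *Fdps* 2.43-fold (2.24 to 2.64), all steps from mevalonate to squalene.

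Among 25 desmosome and junction genes, 7 were at least 2-fold higher and 1 lower (median log2 ratio 0.59). The cadherins of the upper layers led this group: *Dsc1* was 12.9-fold higher (8.62 to 19.2) on 47 UMIs and *Dsg1a* 9.50-fold (7.54 to 11.9) on 121 UMIs, though *Dsg1a* and *Dsg1b* are near-identical copies. The plaque genes *Dsp* and *Jup*, which serve all layers, were 1.74-fold (1.6 to 1.90) and 1.79-fold (1.62 to 1.97) higher. *Dsg3*, the desmoglein of the lower layers, was at 0.602 times the basal level (0.360 to 0.949). The connexin gene *Gjb5* was 5.29-fold higher (4.20 to 6.61).

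Regulators of differentiation differed less as a group, with 7 of 30 at least 2-fold higher, 2 lower and a median log2 ratio of 0.05. The higher members were the transcription factors *Grhl3*, *Grhl1*, *Cebpa*, *Zfp750*, *Klf4* and *Casz1* and the receptor *Notch3*. *Klf4*, a factor of barrier formation, was at 281 CPM and 2.46-fold higher (2.17 to 2.77). *Grhl3* was 3.19-fold higher (1.87 to 5.17) and *Notch3* 2.33-fold (1.12 to 4.4), on 20 and 11 UMIs. With each cell thinned to 5000 UMIs, *Grhl3* was found in 4.55% of spinous, 9.09% of intermediate and 2.24% of strict basal cells. The shares for *Notch3* were 2.27%, 3.64% and 2.07% in the same order. Shares this low rest on few cells, and no order is read from them. *Casz1* and *Notch3* were under 2-fold under the study's own limits on genes and mitochondrial share per cell, at log2 ratios of 0.91 and 0.98. *Notch1* was at 0.457 times the basal level (0.288 to 0.691) and its ligand *Jag2* at 0.263 times (0.120 to 0.503). With *Krt1* and *Krt10* at 2 times *Krt5* and *Krt14*, both were under 2-fold lower, at log2 ratios of -0.48 and -0.97. Scaled to the median ratio, *Notch1* was at -0.73. *Trp63*, the p63 gene that maintains the basal state, was at 0.541 times (0.406 to 0.708).

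Genes of basal adhesion had the lowest median of the keratinocyte lists (the marker lists of other cell types aside), at a log2 ratio of -1.96. Of 21 compared, 20 were at least 2-fold lower and 1 higher, the claudin gene *Cldn1* at 2.53-fold (1.65 to 3.75), which as a mean of per-cell CPM was under 2-fold at a log2 ratio of 0.47. *Col17a1*, the collagen of hemidesmosomes, was at 36.0 CPM in spinous cells and 170 CPM in the basal gate, 0.211 times (0.150 to 0.289). The integrin genes *Itga6*, *Itgb4* and *Itgb1* were at 0.257, 0.257 and 0.245 times the basal level. For *Col17a1*, which T cells should lack, γδ T cells held 44.9 CPM, against the 36.0 CPM of spinous cells. *Itgb1*, which T cells use, was at 77.6 CPM there, so they give no background for it. With each cell thinned to 2000 UMIs, *Itgb4* was found in 3.92% (0.478 to 13.5) of spinous cells. It was found in 2.61% (1.13 to 5.07) of γδ T cells, so no order of these is read from it.

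The stress keratins, which psoriasis-like skin is known for, did not share a direction. *Krt16* was 3.22-fold higher in spinous cells (3.12 to 3.32) at 4157 CPM, *Krt6b* 1.15-fold (1.03 to 1.27), *Krt17* at 0.572 times the basal level (0.533 to 0.613) and *Krt6a* at 0.426 times (0.394 to 0.461). *Krt6a* and *Krt6b* are near-identical copies, so their split is uncertain. *Krt16* reached 156 UMIs per 10000 in the highest spinous cell and 0 in the lowest, with a median of 29.8. For *Krt17*, 42.4% of the UMIs came from 1 cell. With a keratin minimum of 100 per 10000, its log2 ratio went from -0.81 to -1.56, past 2-fold lower.

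The inflammatory groups were mixed. Of 22 alarmin and antimicrobial genes, 3 were at least 2-fold higher and 7 lower, with a median log2 ratio of -0.20 (0.17 when scaled to the median ratio), and against strict basal cells 4 of 20 were higher, 2 lower and the median was 0.45. *Chil1* is among the 3 higher through 1 cell and was at 0.802 times the basal level without it. *Defb6*, a β-defensin, was 9.02-fold higher (8.22 to 9.90), with 26.6% of its UMIs in 1 cell. *S100a10* and *S100a6*, calcium-binding proteins, were at 0.242 (0.214 to 0.274) and 0.318 times (0.303 to 0.334) the basal level, opposite to *S100a8* and *S100a9*. Of 29 cytokine and chemokine genes, 4 were higher and 17 lower, with a median log2 ratio of -1.69, and against strict basal cells 5 of 23 were higher, 11 lower and the median was -0.53. The 4 were *Il1f5*, the IL-36 receptor antagonist, at 6.24-fold (3.64 to 10.3), *Il1f8* (IL-36β) at 4.04-fold (2.08 to 7.33), *Ccl20*, the ligand of CCR6, at 2.33-fold (2.05 to 2.65), and *Il1f6* (IL-36α) at 2.08-fold (1.22 to 3.36). *Ccl20* was under 2-fold, at a log2 ratio of 0.88, without the cell rich in *Klk7* described below, and *Il1f6* at 0.83 when cells with a *Trdc* or *Trdv4* UMI were left out. All but *Ccl20*, with 277 UMIs, rested on 22 UMIs or fewer. *Il19*, a cytokine of the IL-20 group, was at 0.247 times (0.170 to 0.345), the neutrophil chemokine gene *Cxcl1* at 0.230 times (0.155 to 0.329) and *Il33* at 0.263 times (0.126 to 0.487).

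For *Il1b* and *Cxcl2* the level depended on which basal cells were taken. It was 81.8 and 144 CPM in the basal gate but 5.68 and 43.1 CPM in strict basal cells, and 3.69 and 10.2 CPM in spinous cells. Of 29 cytokine receptor and IL-17 signalling genes, 0 were higher and 5 lower. *Il17rc*, a subunit of the IL-17 receptor, was at 126 CPM and 1.87-fold higher (1.56 to 2.23), and *Il17ra*, the other subunit, rested on 9 UMIs. *Socs3*, a feedback inhibitor of cytokine signalling, was at 0.288 times the basal level (0.173 to 0.453). Of 12 EGF family genes 0 were higher and 2 lower, and of 10 interferon-stimulated genes 0 were higher and 1 lower, with 15 of the 28 matched interferon-stimulated genes at 0 UMIs in spinous cells.

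Proteases of the skin and their inhibitors had 13 of 26 genes at least 2-fold higher and 1 lower (median log2 ratio 1.07). *Serpinb12* was 14.4-fold higher (10.0 to 20.5) on 61 UMIs, *Serpinb3a* 7.46-fold (6.66 to 8.33) and *Spink5*, the inhibitor of the kallikreins, 3.33-fold (2.71 to 4.06). *Serpinb3a* and *Serpinb3b* are close copies. The kallikrein genes *Klk8* and *Klk13* were 5.30-fold (4.42 to 6.32) and 3.44-fold (2.85 to 4.13) higher. *Klk5*, *Klk6* and *Klk7*, which cut desmosomes when cells are shed, count as higher because of 1 cell described below. Without it *Klk6* and *Klk7* were lower than in the basal gate. *Klk5* then had 0 UMIs, and the limit of 3 UMIs does not put it under the basal level.

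Cell cycle genes were lower. Of 28 cell cycle genes outside the rule, 21 were at least 2-fold lower and 2 higher, with a median log2 ratio of -1.37, in cells from which *Mki67* and *Top2a* had been limited for spinous and basal gates alike. The 2 higher genes encode inhibitors of cyclin-dependent kinases: *Cdkn1a* (p21) was 2.57-fold higher (2.21 to 2.99) and *Cdkn2b* (p15) 7.34-fold (4.39 to 11.9). As a mean of per-cell CPM *Cdkn1a* was under 2-fold, at a log2 ratio of 0.65. *Ccnd2*, a D-type cyclin, was at 0.0819 times the basal level (0.0353 to 0.162). Of 21 glycolysis and hypoxia genes, 6 were lower and 0 higher, with a median log2 ratio of -0.47, close to all genes. The lowest was the lactate carrier *Slc16a3* at 0.169 times (0.0942 to 0.279), and the glucose carrier *Slc2a1* was at 0.278 times (0.212 to 0.359). *Gapdh* was at 0.677 times (0.651 to 0.703). Immediate early genes, which dissociation is known to induce, had 0 of 18 higher and 1 lower, *Ier3*, and *Fos* was at 203 CPM in spinous cells and 204 CPM in the basal gate.

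**Figure D3:**
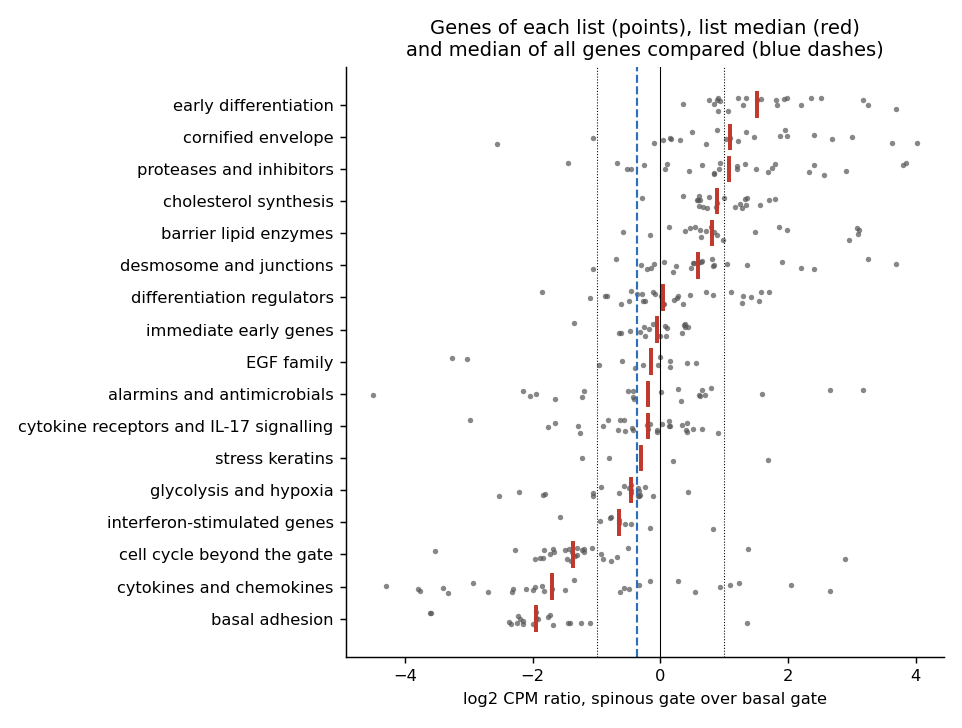
Each grey point is a gene of the list named on the y axis, placed by its log2 CPM ratio of spinous over basal gate, with list medians in red, the median of all 9408 genes (-0.37) dashed and 2-fold dotted. Early differentiation stands at 1.51 and basal adhesion at -1.96.

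Beyond the lists, the 10 highest ratios among genes with at least 200 UMIs over both gates were those of *2310046K23Rik*, *Casp14*, *Krt2*, *Mt4*, *Calm4*, *Tdh*, *Dsg1a*, *Oas1f*, *Pinlyp* and *Ly6g6c*. *Mt4*, the metallothionein of stratified epithelia, was 12.3-fold higher (9.40 to 16.1), with 43.9% of its 98 UMIs in 1 cell. It stood at 90.4 CPM in spinous, 80.9 CPM in intermediate and 1.09 CPM in strict basal cells, so the fold against the basal gate depends on the intermediate cells in it. *Tdh*, which encodes threonine dehydrogenase, was 9.91-fold higher (7.38 to 13.2), *Oas1f*, of the oligoadenylate synthetase family, 9.31-fold (7.95 to 10.9) and *Pinlyp*, a phospholipase inhibitor, 9.08-fold (7.52 to 10.9). The 10 lowest were *Dct*, *Ptpre*, *Pf4*, *Il17f*, *Slc12a4*, *Cd14*, *Cx3cr1*, *Trabd2b*, *Plac8* and *Fst*, of which 9 had 0 UMIs in spinous cells. Taking 3 UMIs over the spinous cells as the limit, *Ptpre*, a receptor phosphatase, was at least 5.72-fold lower and *Slc12a4*, a chloride carrier, at least 5.4-fold lower. *Cx3cr1*, the fractalkine receptor, had 1 UMI in spinous cells and 776 in the basal gate, a ratio of 0.0216 (0.000545 to 0.120). For *Cx3cr1*, 709 of these UMIs were in strict basal cells, and for *Slc12a4* 241 of 271. For *Pf4*, *Il17f*, *Cd14* and *Plac8*, which mark platelets, T cells and myeloid cells, 30 of 281, 17 of 274, 41 of 268 and 19 of 242 were in strict basal cells.

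Of the 3 classes compared, spinous cells had the fewest 2-fold differences from intermediate cells. This comparison, added after seeing the data, uses the same cell filters. The fewer UMIs of this class also left fewer genes to compare. The median intermediate cell had 22239 UMIs and 3407 genes. Of 3572 genes with at least 50 UMIs over both, 60 (1.68%) were at least 2-fold higher in spinous cells and 48 (1.34%) lower, with a median log2 ratio of -0.12. *Sbsn* was 3.05-fold higher (2.71 to 3.43), *Ccl20* 3.16-fold (2.53 to 3.97), *Krt2* 2.61-fold (2.40 to 2.85), *Ly6g6c* 4.34-fold (3.39 to 5.6) and *Calm4* 2.11-fold (2.03 to 2.2). *Krtdap* and *Fabp5* differed less, at 1.43-fold (1.39 to 1.48) and 1.21-fold (1.19 to 1.23). *Krt6a* and *Krt6b* were lower in spinous cells, at 0.568 (0.517 to 0.624) and 0.497 times (0.443 to 0.558) the intermediate level, as were *Sprr2f* at 0.306 times and *Sprr2b* at 0.325 times. As a group the basal adhesion genes summed to 377 CPM in spinous and 478 CPM in intermediate cells, with 0 of 10 at least 2-fold higher, 1 lower and a median log2 ratio of -0.24. Of the 5 basal markers of the check above, *Col17a1* stood at 36.0 and 35.1 CPM, *Itga6* at 45.2 and 44.4 CPM and *Itgb1* at 24 and 22.9 CPM. *Itgb4* was at 0.889 times the intermediate level (0.477 to 1.63) and *Krt15* at 0.645 times (0.368 to 1.10). The intervals of all 5 ratios took in equality. Both *Col17a1* levels lay under that of γδ T cells given above. Thinned to 5000 UMIs, *Itgb4* was found in 9.09% of spinous, 10.9% of intermediate and 8.45% of Langerhans cells. Equality so near free RNA says little of the 2 classes.

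Spinous cells differed widely among themselves in which keratin of the pair they carried. Summed over the 57 cells, *Krt1* had 11653 UMIs and *Krt10* 11650. Cell by cell the *Krt1* share of the pair ran from 0% through a median of 55.3% to 98.9%. In 7 cells *Krt1* was over 5 times *Krt10*, and in 4 cells *Krt10* was over 5 times *Krt1*. In intermediate cells *Krt1* made up 68.5% of the pair (9068 and 4161 UMIs), and in strict basal cells 72.6%. The rule sums both genes and asks for no share of either. The cells were still chosen on *Krt1* and *Krt10*, so these shares are a description, and the part of the rule in them was not tested.

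**Figure D4:**
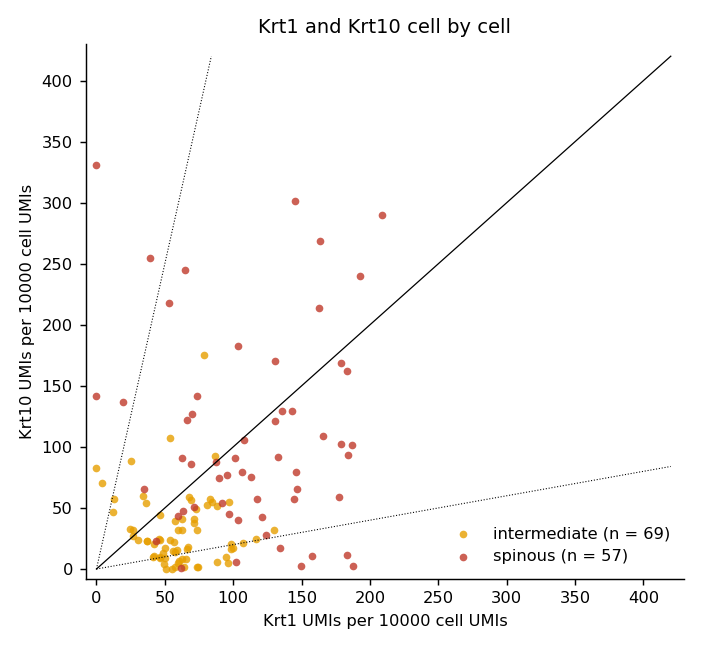
*Krt1* (x axis) and *Krt10* (y axis) as UMIs per 10000 cell UMIs in each of the 57 spinous and 69 intermediate cells, with equality solid and ratios of 5 dotted. Cells lie beyond both dotted lines, 7 and 4 of the spinous cells, and the spinous cells follow no single line.

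After thinning each cell to 5000 UMIs, which kept 44 of the 57 spinous cells, *Krt1* and *Krt10* had a Spearman correlation of 0.03. *Krt10* went with *Calm4* (0.58) and with *Krt2* (0.55), and ran against *S100a9* (-0.39). *Krt1* did not share this, with -0.20 for *Calm4* and -0.39 for *Krt2*. Thinned to 2000 UMIs, with 51 cells, *Krt10* had 0.64 with *Calm4* and 0.50 with *Krt2*, and *Krt1* had -0.20 with *Calm4* and -0.19 with *Krt2*. These are descriptions over cells of 1 library, which share their free RNA and were chosen on *Krt1* and *Krt10*.

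Ordered by the *Krt1* and *Krt10* share of the 4 keratins and divided into 3 groups of 19 cells, the spinous cells differed in other genes too. The ordering itself uses *Krt1* and *Krt10*, whose levels are given as a description. *Krt1* stood at 9751, 10999 and 11585 CPM from the lowest to the highest group, and *Krt10* at 6027, 8457 and 18252 CPM. *Calm4* stood at 4441, 5253 and 9734 CPM, *Krt2* at 954, 824 and 2776 CPM and *Sbsn* at 736, 575 and 1372 CPM, each highest in the top group and close in the other 2. *Krt6a* went the other way, at 762, 747 and 236 CPM, and *Krt6b* was at 485, 484 and 167 CPM. *Fabp5* was flatter, at 23665, 27025 and 22584 CPM. Immediate early genes summed to 3519, 2938 and 2208 CPM over the same groups, and their part in these differences was not tested.

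Shares of cells with a transcript were compared at 5000 UMIs per cell. *Calm4* and *Krtdap* were found in 44 of 44 spinous cells, *Sbsn* in 95.5% (84.5 to 99.4) and *Elovl4* in 84.1% (69.9 to 93.4). *Dsg1a* was found in 47.7% (32.5 to 63.3), *Krt2* in 40.9% (26.3 to 56.8) and *Casp14* in 31.8% (18.6 to 47.6). In intermediate cells *Calm4* and *Krtdap* were found in 55 of 55, *Sbsn* in 63.6% and *Elovl4* in 61.8%. *Dsg1a* was found there in 18.2%, *Krt2* in 38.2% and *Casp14* in 14.5%. The *Krt2* share of intermediate cells lay inside the interval of spinous cells, and that of strict basal cells was 19.5%. Langerhans cells, which should lack these transcripts, showed *Calm4* in 36.6% and *Krtdap* in 81.7% of 142 cells, but *Elovl4* in 1.41%, *Krt2* in 2.82% and *Casp14* in 0.704%. Their median before thinning was 8420 UMIs. *Elovl4*, *Krt2* and *Casp14* were therefore above this background in spinous cells, while presence alone says little for *Krtdap*. At 2000 UMIs per cell the shares of *Elovl4*, *Krt2* and *Casp14* were 45.1%, 39.2% and 13.7%, against 0%, 0.637% and 0.637% of Langerhans cells. *Col17a1* was found in 22.7% (11.5 to 37.8) of spinous, 59.8% (55.7 to 63.8) of strict basal and 13.4% (8.25 to 20.1) of Langerhans cells. At 2000 UMIs it was found in 5.88% (1.23 to 16.2) of spinous and 8.92% (4.96 to 14.5) of Langerhans cells, so no order of these 2 is read from it.

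The spinous cells fell into 2 sets by mitochondrial share. In 16 of 57 cells (28.1%, 17.0 to 41.5) it lay between 0.120 and 0.462%, and in the other 41 between 1.2 and 7.94%, with none between. The 16 cells had a median of 3839 UMIs against 25656 and were nearly without *Malat1*, an RNA kept in the nucleus, with 14 UMIs (193 CPM) against 2086 (2063 CPM). Such cells were 29.0% (18.7 to 41.2) of intermediate and 18.6% (15.9 to 21.6) of strict basal cells. Of the abundant markers outside the rule, the ratio of low to other spinous cells was 1.04 (0.987 to 1.09) for *Lgals7*, 0.952 (0.844 to 1.07) for *Dmkn*, 0.982 (0.898 to 1.07) for *Krtdap* and 1.10 (0.999 to 1.2) for *Calm4*. *Sbsn* was 1.42-fold (1.13 to 1.77) higher in the 16 cells and *Ly6d* at 0.673 times (0.578 to 0.781) the level of the others. *Dsc1* had 0 UMIs in the 16 cells against 47, a ratio of 0 (0 to 1.14), and *Dsg1a* 3 against 118, a ratio of 0.354 (0.0721 to 1.06). Both intervals took in equality. *S100a9* was 1.67-fold (1.61 to 1.73), *Stfa3* 2.04-fold (1.88 to 2.21), *Krt6b* 2.0-fold (1.46 to 2.68) and *Krt16* 1.6-fold (1.45 to 1.76) higher in the 16 cells. Of the 277 *Ccl20* UMIs, 1 lay in these cells.

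**Figure D5:**
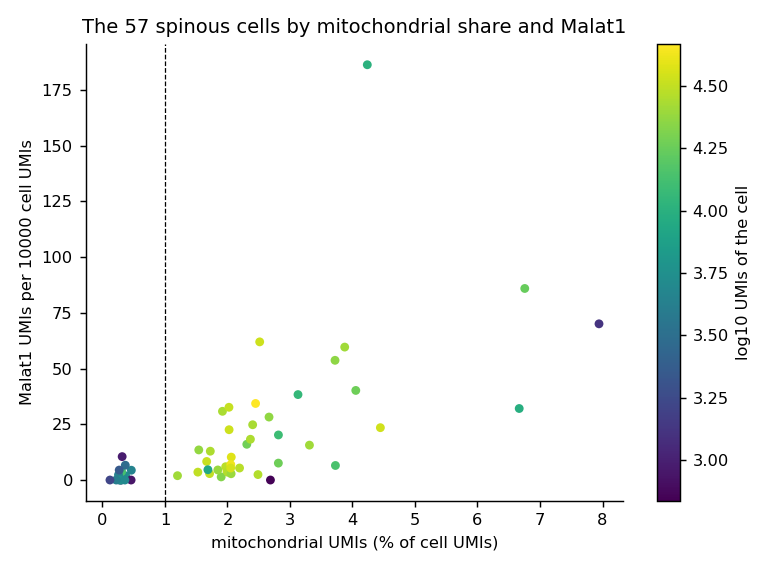
Each point is a spinous cell, with mitochondrial UMIs in percent of its UMIs on the x axis, *Malat1* UMIs per 10000 on the y axis and log10 UMIs as colour. Left of the dashed line at 1% lie 16 cells with few UMIs and little *Malat1*, apart from the other 41.

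One spinous cell carried most of the UMIs of several genes. Of 3739 genes with at least 20 UMIs in spinous cells, 10 had over 50% of them in 1 cell, and for 7 it was the same cell, among them *2310046K23Rik* (445 of 617 UMIs), *Chil1* (76 of 103), *Klk7* (74 of 75), *Klk6* (33 of 34), *Klk5* (25 of 25) and *Slurp1* (41 of 57). It held 23688 UMIs, 66.3 *Krt1* and *Krt10*, 57.4 *Krt5* and *Krt14* and 5.91 *Krt79* UMIs per 10000, the last being the highest *Krt79* value of any spinous cell. *Krt79* marks cells of the hair follicle opening and was limited by the rule at 10 per 10000. Without the richest cell, *2310046K23Rik* was 8.45-fold above the basal gate, where it was 29.7-fold with it.

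Clustering of the 3424 cells of the keratinocyte gates without the 12 genes of the rule put 51 of the 57 spinous cells (89.5%) and 55 of the 69 intermediate cells into 1 cluster of 565 cells. Its leading genes were *Gadl1*, *Aox4*, *Serpinb12*, *Mt4*, *Stx19* and *Elovl4*. Spinous cells were 9.03% of it, beside 309 cycling and 205 basal gate cells, so the clusters did not set the spinous cells apart from every cell of the other gates. Of the other 6, 4 were in a cluster with a median of 1104 UMIs led by Langerhans cell genes and 2 in a cluster led by *Pparg* and *Cidea*, among them the cell rich in *Klk7*.

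Markers of immune cells, melanocytes, fibroblasts, endothelium and Merkel cells were low in spinous cells. The sum for hair follicle and sebaceous gland was not low, in part through 1 cell rich in *Krt17*. The T cell list summed to 100 UMIs over 12 of its 14 genes, the largest being *Trbc2* (32 UMIs), with *Trac* and *Gzmb* at 0, and to 92.3 CPM against 27781 CPM in γδ T cells. The Langerhans and antigen presentation list summed to 299 UMIs, led by *Cd74* (97 UMIs), or 276 CPM against 79958 CPM in Langerhans cells. *Ptprc* and *Rac2* were at 0, and *Dct*, *Tyrp1*, *Col1a1* and *Krt20* as well. The myeloid list rested on *S100a9* and *S100a8*, with *Adgre1*, *Csf3r* and *C1qc* at 0. The follicle and sebaceous list summed to 2365 UMIs over all 57 cells, led by *Krt17* (838 UMIs), with *Lgr5*, *Lgr6* and *Lhx2* at 0. That was 2183 CPM, against 2006 CPM in the basal gate and 1633 CPM in strict basal cells. A keratin minimum of 100 per 10000 left 55 cells, without the cell rich in *Klk7*. The log2 ratio to the basal gate then went from -0.81 to -1.56 for *Krt17* and from 0.91 to 0.17 for *Cst6*, also in the list. The list median went from -0.38 to -0.33. The list holds *Defb6* as well, and its part in the ratios of *Defb6* and *Cst6* was not tested. A *Trdc* or *Trdv4* UMI was found in 7 spinous cells, never more than 1 each.

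The dermal library was sorted for CD45+ cells by the methods and for live cells by the labels. In it 0 of 4747 kept cells passed the rule, which allows a share of up to 0.0632% (3 counts of the total, exact upper limit 0.0777%). It held 2 *Krt1* UMIs and 316 *Krt10* UMIs, against 44087 and 28743 in the epidermal library. The highest dermal cell reached 18 *Krt1* and *Krt10* UMIs per 10000. Both libraries shared 45 barcodes, and none of them belonged to a spinous cell.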

How the data were processed

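Epidermis and dermis of IMQ-treated mice gave 1 library each. The authors counted UMIs per gene and cell with Cell Ranger (the matrix headers name version 3.0.2) and deposited the raw counts of all called barcodes, before filters. The submitters' processing notes name mm10, and 30934 of 31053 gene identifiers were found in GENCODE M21 (GRCm38). Every cell kept its counts, summed per gate and scaled to CPM. Ratios carry exact conditional intervals and shares Clopper-Pearson intervals, at 95%. Counts of higher and lower genes used 0.5 UMI added, 2-fold and at least 50 UMIs. A level of 0 was bounded with 3 UMIs. Doublets were kept. As an alternative, the 139 highest Scrublet scores of the kept cells (0.8% per 1000 cells) were removed, since the tool itself called 8 of 4173. Clusters came from Leiden (2000 variable genes, 20 components, 15 neighbours, resolution 0.5).

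The spinous cells, gates, gene lists and alternatives were chosen with earlier results of these data known. Genes were named from the lists, from the 10 highest and 10 lowest ratios with at least 200 UMIs over both gates and from the 15 most abundant, without the 12 genes of the rule, mitochondrial and ribosomal protein genes. Genes led by 1 cell, of the intermediate comparison, of strict basal levels, of clusters and *Malat1* were chosen with their values already known. Some genes that these rules pick are not reported here. Of the list entries, 8 were not matched by name. The ratio step was tested on simulated data. Tools were Python 3.11.15, numpy 2.4.6, scipy 1.17.1, pandas 2.3.3, scanpy 1.11.5, scikit-learn 1.9.0, leidenalg 0.10.2 and matplotlib 3.10.9. Other filters, gate limits, UMI minimums, pseudocounts, scalings, per-cell means and thinning depths were the alternatives.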

Additional observations from a re-analysis of the deposited data

How the results depend on the processing

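The number of spinous cells moved most with the balance of the keratin pairs: asking for *Krt1* and *Krt10* at 2 times *Krt5* and *Krt14* left 29 cells of 57. Genes at least 2-fold higher than in the basal gate numbered 624 with a minimum of 20 UMIs, 194 with 200 UMIs and 795 when scaled to the median ratio, and those lower 1009 with 200 UMIs and 1243 when scaled. Thinned to 2000 UMIs, which leaves fewer UMIs to find, the share of cells with a UMI was 13.7% for *Casp14* and for *Dsg1a*, 45.1% for *Elovl4*, 66.7% for *Sbsn* and 5.88% for *Col17a1*. Log2 ratios of *Klk5*, *Klk6*, *Klk7* and *Chil1* came to -1.83, -3.00, -3.29 and -0.29 without the cell rich in *Klk7*. With a keratin minimum of 100 per 10000 they came to -1.82, -2.98, -3.27 and -0.27. With the balance at 2 they came to -0.65, -1.81, -2.10 and -0.80, and *Krt6b* to -0.18. *Ccl20* was under 2-fold at 0.88, 0.90 and 0.76 in the same order. The *Klk5* values rest on 0 UMIs with 0.5 UMI added, so no turn is read from them. Other named genes past 2-fold that were under it in an alternative were *Cldn1* (0.47) and *Cdkn1a* (0.65), with *Chil1* (0.70) and *Klk6* (0.20), as means of per-cell CPM, *Casz1* (0.91), *Notch3* (0.98) and *Sprr2b* (0.97) under the study's filters, *Il1f6* (0.83) and *Calml3* (0.23) without *Trdc* or *Trdv4* UMIs, *Jag2* (-0.97), *Calml3* (0.45), *Notch1* (-0.48) and *Trbc2* (-0.79) with the balance at 2, *Ier3* (-0.99), *Notch1* (-0.73) and *Trbc2* (-0.90) when scaled, and *Cd74*, *Gzmb*, *Il1b* and *Rac2* (-0.96, -0.49, -0.46 and -0.89) against strict basal cells. *Krt6a* lay between -0.83 and -0.96 and *Sprr2f* between -0.53 and -0.97 in the alternatives that took them under 2-fold. Several list medians changed sign. The alarmins came to 0.27 with a minimum of 20 or of 200 UMIs, 0.17 when scaled, 0.45 against strict basal cells and 0.026 with at least 1% mitochondrial UMIs. Scaling turned *Malat1* to 0.058, stress keratins to 0.066, cytokine receptors to 0.17, the EGF family to 0.22 and immediate early genes to 0.31. Against strict basal cells the immediate early genes came to 0.021, the myeloid markers to 0.49 (from -1.70) and the follicle and sebaceous markers to 0.32 (0.50 with a minimum of 200 UMIs). Per-cell means gave the regulators -0.0081 and the stress keratins 0.20, and the study's filters (200 to 5000 genes, 5% mitochondrial) gave the EGF family 0.074. Those causes were not tested, apart from the cell rich in *Klk7*. Of 1960 gene ratios under alternatives 1609 moved by less than their counting interval and 14 whose interval left out equality changed sign, and of 322 list medians 260 moved by less than the standard error over the genes of the list and 16 changed sign. The strict basal gate, the minimum of 1% mitochondrial UMIs, no mitochondrial limit and leaving out the cell rich in *Klk7* were chosen after seeing the data. The granular alternatives gave no values, because no cell passed that gate. No paired analysis was possible because the tissues have 1 replicate number between them. With 57 cells from 1 library, intervals cover counting error and say nothing of other mice.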
